A study of Oncorhynchus mykiss with 14 samples.

Results

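In the eggs of 7 female rainbow trout, the transcripts of 56 genes were present in the clutches of some females and missing, or nearly so, from the clutches of others. They were selected on their counts in all 14 libraries of the series. A transcript was called present in a clutch when both libraries of the clutch had a level of at least 2 CPM, which is counts per 1000000 counts assigned to genes, and absent when both had at most 3 counts. A gene was taken when it was present in at least 2 clutches and absent from at least 2 others. The rule gave 57 genes, of which ENSOMYG00000040771 (IRS2A, an adaptor of insulin signalling) is not described here. The other 56 were 0.0868% of the 64494 annotated genes and 0.345% of the 16235 genes present in at least 2 clutches. Because the counts of every library chose the genes, their levels in the clutches are given as a description, with no test.

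The eggs came from rainbow trout of the Rutki strain, and the females are called F1, F2, F3, F4, F6, F7 and F8. In the gynogenetic group (7 libraries) eggs were activated with UV-irradiated sperm, which came from European grayling, and in the control group (7 libraries) other eggs of the same clutches were fertilized with sperm of rainbow trout that had not been irradiated. The labels give the same genotype, XX and doubled haploid, for every sample of both groups. The study used untreated trout sperm for control eggs and did not double their chromosomes. For this group the label does not match that design. Eggs were collected right after treatment, and the sources used here do not say whether the sequenced gynogenetic eggs had by then received the pressure shock that doubles the maternal chromosomes. Each library held polyadenylated RNA of 2 or 3 pooled eggs, so each clutch was read in 2 small pools, and the pools of a clutch differ in treatment as well as in eggs.

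Fish eggs are loaded with RNA and protein by the mother while they grow in the ovary. The early embryo divides on this store, and it makes little RNA of its own until its genome is switched on. In gynogenesis the DNA of the sperm is destroyed before insemination, so that the embryo develops with chromosomes of the mother alone, and its early steps rest on the maternal store as in any other egg.

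The gynogenetic libraries held 45860801 to 67557305 counts assigned to genes and the control libraries 34535902 to 57014149. The stored transcript of CCNB1 (ENSOMYG00000039583), a cyclin of entry into cell division, had 2016 to 2796 CPM (median 2296) in gynogenetic libraries and 1653 to 2502 CPM (median 2110) in control libraries. Of 18 egg markers this 1 could be matched to an identifier, and none of the markers of follicle cells (9), red blood cells (7), white blood cells (8) or sperm and testis (8) could be matched, so RNA of these cells could not be looked for. Nearly all counts were even numbers. Between 0.226% and 0.341% of the genes above 0 in a library had an odd count, so that 2 counts stood for about 1 sequenced fragment. At most 3 counts thus meant at most 1 fragment, while 2 CPM was 69.1 counts in the shallowest library (control, F7) and 135 counts in the deepest (gynogenetic, F7). A fold change against clutches at 0 is given as a lower bound against a floor of 3 fragments (6 counts) in the shallowest of the absent libraries, and it covers counting error only.

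All 56 genes passed the study's criterion of detection, a mean above 1 normalized count, as did 30919 of all genes. None of the 56 is named in the study's gene lists, and the identifiers could not be paired with symbols, products or positions in the reference used here. They are therefore named by Ensembl identifier, and nothing is said of what their products do.

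**Figure D1:**
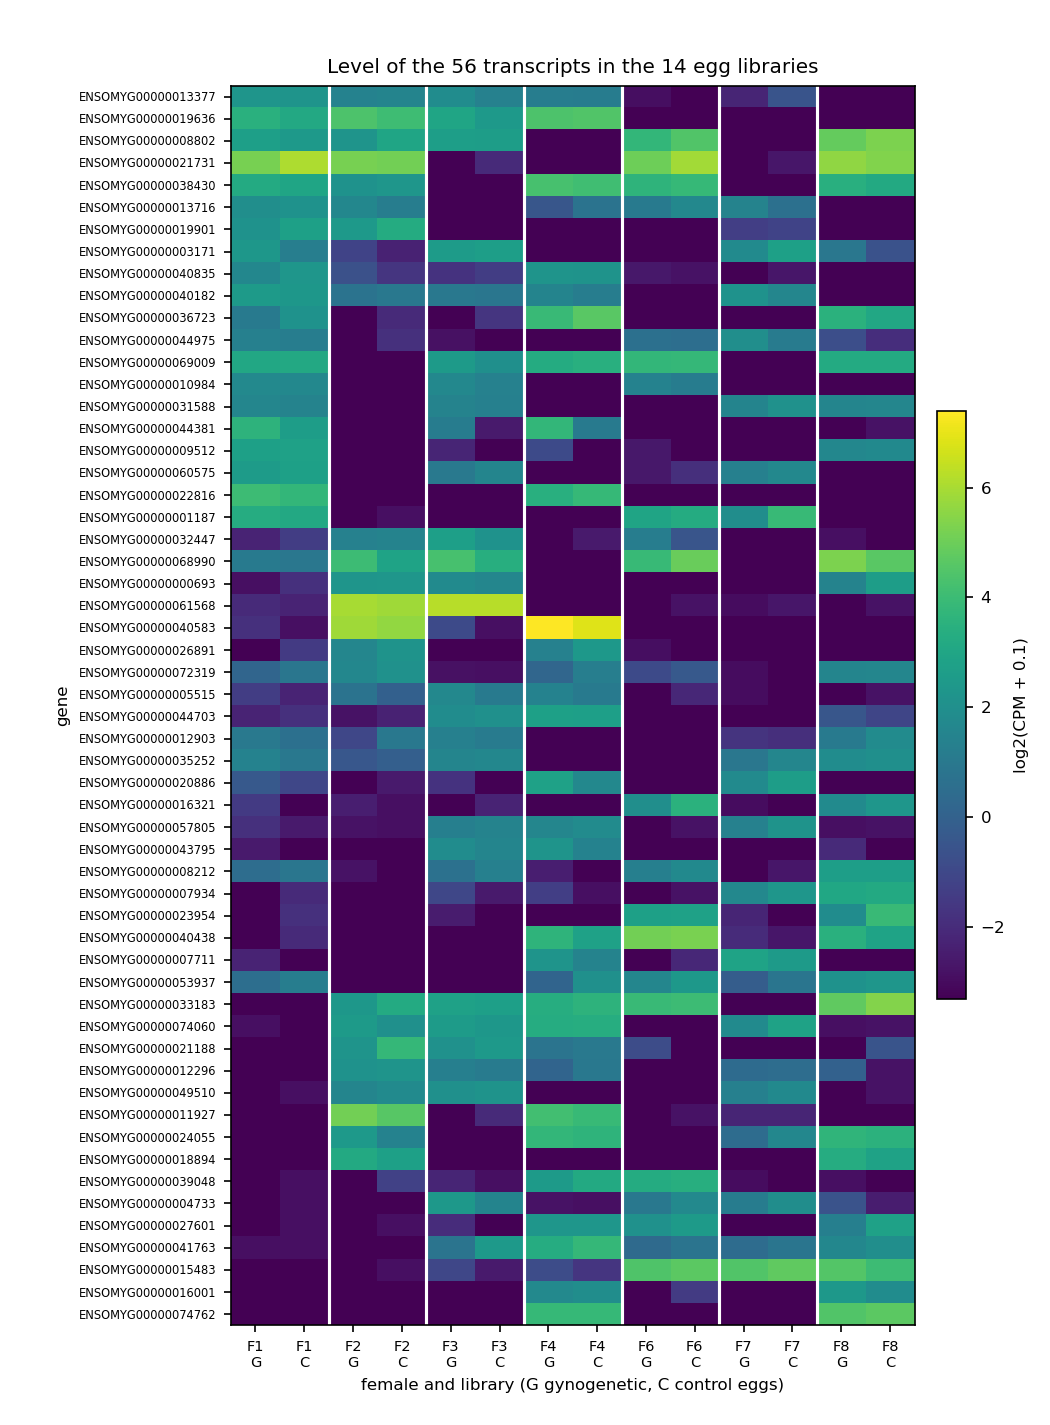
Level of the 56 genes (lines) in the 14 libraries (columns, grouped by female, with the gynogenetic library left of the control library) as log2 of CPM plus 0.1. Dark cells are libraries with no or almost no counts. In no clutch was a gene present in 1 library and absent from the other, which the rule favours.

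The 56 genes and 7 clutches made 392 combinations of a gene with a clutch. The transcript was present in 149, absent in 151 and between the thresholds in 92. In the absent combinations, 259 of 302 libraries (85.8%) had 0 counts and the other 43 had 2 counts, with none at 1 or 3. For 33 genes every library of the absent clutches was at 0. The mean level in the clutches that carried the transcript was at least 16.04-fold to at least 569-fold over the floor in these 33 genes, with a median lower bound of 38.2-fold. The other 23 genes had 2 counts in at least 1 absent library.

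Combinations between the thresholds were mostly close to absence. In 53 of the 92 both libraries were under 0.5 CPM, in 26 the higher library was at 0.5 CPM or more and under 2 CPM, and in 13 it was at 2 CPM or more. No combination had 1 library at 2 CPM and the other at 3 counts or fewer. The rule favours this, since it took genes whose libraries agreed in several clutches. For 13 genes no clutch lay between the thresholds, so that all 7 clutches were either present or absent.

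Counts of most of these genes were modest where the transcript was present. The mean over the libraries of the carrying clutches ran from 2.44 to 98.8 CPM with a median of 5.09 CPM, and it was at least 10 CPM in 14 genes and under 5 CPM in 28. For the other 16179 genes present in at least 2 clutches the median was 16.5 CPM. CPM is not scaled to gene length, so these values describe the counts behind each gene and not its abundance relative to other genes.

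Among the clutches that had a transcript, its level varied by less than 2-fold in most genes. The mean of the 2 libraries in the highest carrying clutch was 1.04 to 6.33 times that in the lowest (median 1.56 times, 56 genes). The rule leaves out clutches with a library under 2 CPM, and 33 genes had only 2 carrying clutches. Both narrow this spread, and it was not compared with that of other genes.

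Among genes present in 2 clutches, ENSOMYG00000040583 had the most counts. It had 168 and 58.6 CPM in the gynogenetic libraries of F4 and F2, and 118 and 50.7 CPM in their control libraries. Gynogenetic eggs of F1 and F3 had 0.181 and 0.424 CPM, and control eggs of both 0.0356 CPM. All 6 libraries of F6, F7 and F8 were at 0. The mean over the libraries of F2 and F4 was at least 569-fold higher than in these 3, and F4 was 2.61 times F2.

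ENSOMYG00000061568 had 63.1 and 75.3 CPM in gynogenetic eggs of F2 and F3, against 58.9 and 75.0 CPM in control eggs of the same females. F1 had 0.145 CPM in gynogenetic and 0.107 CPM in control eggs. In F4, F6, F7 and F8 no library had more than 2 counts, and 4 of their 8 libraries were at 0. In both carrying clutches the 2 pools differed by far less than either differed from the remaining clutches.

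F2 and F4 also shared ENSOMYG00000011927, with 34.1 and 17.7 CPM in gynogenetic eggs and 24.3 and 14.9 CPM in control eggs. F1, F6 and F8 had at most 2 counts in a library, and the highest library of F3 and F7 was at 0.143 CPM. With ENSOMYG00000026891, 3 genes were present in F2 and F4 alone.

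F4 and F8 carried ENSOMYG00000074762, which had 14.5 and 22.4 CPM in gynogenetic eggs and 14.6 and 25.4 CPM in control eggs. All 10 libraries of the other 5 females were at 0. The mean over the libraries of F4 and F8 was at least 111-fold higher. ENSOMYG00000016001 had the same pattern at lower counts, with 3.15 and 5.06 CPM in gynogenetic eggs and 3.68 and 3.64 CPM in control eggs of F4 and F8. Of the other libraries only the control library of F6 had any counts, at 0.262 CPM.

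ENSOMYG00000022816 was present in F1 and F4, with 15.96 and 10.7 CPM in gynogenetic eggs against 13.5 and 14.2 CPM in control eggs. It was at 0 in all 10 libraries of F2, F3, F6, F7 and F8. The mean over the libraries of F1 and F4 was at least 78.3-fold higher. ENSOMYG00000018894 was the third gene absent from 5 clutches. It had 8.98 and 9.82 CPM in gynogenetic eggs of F2 and F8, and 6.76 and 7.16 CPM in control eggs, with 0 in the 10 libraries of the other 5 females.

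ENSOMYG00000039048 was present in F4 and F6, at 5.66 and 9.64 CPM in gynogenetic eggs and 8.98 and 10.4 CPM in control eggs. The other 5 clutches had at most 0.319 CPM in a library, in control eggs of F2. ENSOMYG00000023954, present in F6 and F8, had 6.65 and 3.63 CPM in gynogenetic eggs against 7.00 and 15.4 CPM in control eggs. Its pools stood further apart in F8 than in F6.

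Other genes were carried by 3 clutches. ENSOMYG00000015483 marked F6, F7 and F8, with 21.3, 22.2 and 23.1 CPM in their gynogenetic libraries and 25.6, 27.3 and 16.2 CPM in their control libraries. F3 and F4 reached at most 0.468 CPM in a library, and F1 and F2 had at most 2 counts. The level was thus nearly the same in the 3 carrying clutches, whose highest mean was 1.26 times the lowest.

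ENSOMYG00000040438 was present in F4, F6 and F8, at 12.6, 34.6 and 11.1 CPM in gynogenetic eggs and 6.81, 37.2 and 7.37 CPM in control eggs. F6 stood above both other carriers in each group. F2 and F3 were at 0 in all 4 libraries, and the highest library of F1 and F7 was at 0.148 CPM.

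ENSOMYG00000001187 was present in F1, F6 and F7, with 9.79, 7.48 and 3.67 CPM in gynogenetic eggs and 8.68, 9.40 and 14.7 CPM in control eggs. In the other 4 clutches 7 of 8 libraries were at 0. ENSOMYG00000024055 was present in F2, F4 and F8, at 5.32, 13.7 and 12.9 CPM in gynogenetic eggs and 2.62, 12.3 and 11.7 CPM in control eggs. F7 lay around the threshold, with 1.27 CPM in gynogenetic and 3.01 CPM in control eggs, and F1, F3 and F6 were at 0.

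ENSOMYG00000036723 had the widest spread among its carriers. F1, F4 and F8 had 2.03, 15.2 and 11.3 CPM in gynogenetic eggs and 4.30, 24.9 and 8.37 CPM in control eggs, so that the highest carrying clutch was 6.33 times the lowest. F6 and F7 were at 0, and F2 and F3 had at most 0.214 CPM in a library.

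**Figure D2:**
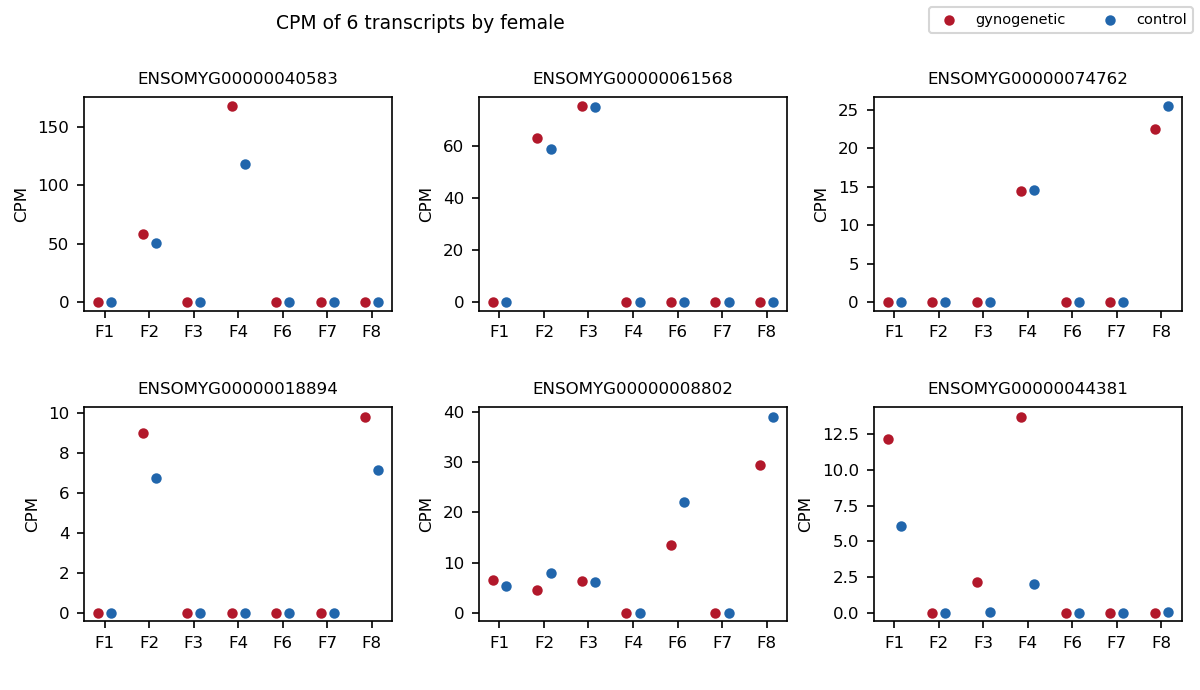
CPM of 6 genes in the gynogenetic (red) and control (blue) libraries of each female, 1 point per library, with an axis of its own for each gene. ENSOMYG00000074762 and ENSOMYG00000018894 are above 0 in 2 clutches each, ENSOMYG00000008802 is at 0 in F4 and F7 alone, and ENSOMYG00000044381 shows a gap between the pools of F4, with 13.7 CPM in gynogenetic and 2.03 CPM in control eggs.

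The broadest genes were missing from 2 clutches and present in 5, and there were 4 of these. ENSOMYG00000008802 had 6.49, 4.62, 6.40, 13.6 and 29.3 CPM in gynogenetic eggs of F1, F2, F3, F6 and F8, and 5.37, 7.83, 6.17, 21.95 and 39.0 CPM in control eggs. It was at 0 in all libraries of F4 and F7. ENSOMYG00000033183 had 5.06, 6.82, 10.002, 15.4 and 27.5 CPM in gynogenetic eggs of F2, F3, F4, F6 and F8, and 9.17, 6.56, 12.03, 16.3 and 42.2 CPM in control eggs, with 0 in F1 and F7. In both genes the eggs of F8 had the most.

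ENSOMYG00000038430 was at 0 in F3 and F7 and had 4.32 to 19.03 CPM in the 5 gynogenetic libraries of F1, F2, F4, F6 and F8, against 4.85 to 16.9 CPM in their control libraries. ENSOMYG00000069009 was at 0 in F2 and F7 and had 5.63 to 13.7 CPM in the gynogenetic libraries of F1, F3, F4, F6 and F8, against 3.92 to 14.1 CPM in their control libraries. All 4 of these genes were at 0 in both libraries of F7.

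Another 6 genes were present in 4 clutches. ENSOMYG00000021731 had 36.3, 36.4, 32.4 and 49.5 CPM in gynogenetic eggs of F1, F2, F6 and F8, against 66.7, 34.6, 59.8 and 41.4 CPM in control eggs. F4 and F7 had at most 2 counts in a library and F3 at most 0.143 CPM. ENSOMYG00000068990 had 16.1, 19.4, 14.7 and 38.5 CPM in gynogenetic eggs of F2, F3, F6 and F8, against 7.40, 10.4, 30.6 and 24.8 CPM in control eggs. In F1 it fell just short of the threshold, with 1.96 CPM in gynogenetic and 1.81 CPM in control eggs, and F4 and F7 were at 0.

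ENSOMYG00000019636 and ENSOMYG00000013377 divided the females in the same way. ENSOMYG00000019636 had 11.1, 21.3, 7.79 and 20.9 CPM in gynogenetic eggs of F1, F2, F3 and F4, against 8.82, 16.5, 5.42 and 22.03 CPM in control eggs, and 0 in all 6 libraries of F6, F7 and F8. ENSOMYG00000013377 had 2.21 to 4.64 CPM in gynogenetic and 2.17 to 4.59 CPM in control eggs of F1 to F4. It was absent from F6 and F8, and F7 had 0.118 CPM in gynogenetic and 0.579 CPM in control eggs. ENSOMYG00000031588, with a different set of carriers, was the most even of the 6, at 2.699 to 2.90 CPM in gynogenetic and 2.46 to 4.23 CPM in control eggs of F1, F3, F7 and F8 and at 0 in F2, F4 and F6.

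Across the 56 genes, 33 were present in 2 clutches, 13 in 3, 6 in 4 and 4 in 5. Absence was counted in 2 clutches for 31 genes, in 3 for 14, in 4 for 8 and in 5 for 3. The genes fell into 36 different sets of carrying clutches, of 112 possible sets of 2 to 5 clutches, and 24 sets were held by 1 gene. The most frequent were F2 with F3 and F6 with F8, with 4 genes each. F1 with F4, F2 with F4, F3 with F4 and F4 with F8 had 3 genes each. Clutches between the thresholds count as not carrying here, so the sets depend on the limit of 2 CPM. ENSOMYG00000041763, in the set of F4 and F8, had 5.53 CPM in control eggs of F3. In its carrier F8 it had 2.97 CPM in gynogenetic and 3.77 CPM in control eggs.

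For the set of F6 and F8, the genes besides ENSOMYG00000023954 were ENSOMYG00000008212, ENSOMYG00000016321 and ENSOMYG00000053937. ENSOMYG00000016321 had 3.77 and 3.39 CPM in gynogenetic eggs of F6 and F8, and 11.2 and 4.85 CPM in control eggs. ENSOMYG00000053937 had 2.94 and 4.30 CPM in gynogenetic eggs of F6 and F8, and 5.07 and 4.81 CPM in control eggs. It was at 0 in F2 and F3 and between the thresholds in the other 3 clutches, where control eggs of F1 and F4 had 2.24 and 4.03 CPM and gynogenetic eggs 1.38 and 0.979 CPM.

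The set of F2 and F3 held ENSOMYG00000061568 with ENSOMYG00000012296, ENSOMYG00000021188 and ENSOMYG00000032447. ENSOMYG00000021188 had 4.54 and 4.20 CPM in gynogenetic eggs of F2 and F3, and 13.95 and 5.38 CPM in control eggs, and it was at 0 in F1 and F7. The 4 genes differed in where they were absent, since only ENSOMYG00000061568 was absent from F4.

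Some pairs of genes had the same state in nearly all clutches. A gene with 2 or more clutches between the thresholds could not be in a counted pair. The number of pairs to be met by coincidence was not worked out. Of 1540 pairs, 5 were called alike in 6 clutches and opposite in none, and no pair was alike in all 7. Pairs alike in 6 clutches and opposite in the other were not counted. ENSOMYG00000074060 and ENSOMYG00000049510 made such a pair, opposite in F4. In the remaining clutch of each of the 5 pairs, 1 gene lay between the thresholds, and there the levels could differ. In F3, ENSOMYG00000008802 had 6.40 CPM in gynogenetic and 6.17 CPM in control eggs, and ENSOMYG00000021731 had 0 and 0.143 CPM. The 5 pairs were ENSOMYG00000008802 with ENSOMYG00000021731 and with ENSOMYG00000068990, ENSOMYG00000013377 with ENSOMYG00000019636, ENSOMYG00000016001 with ENSOMYG00000074762, and ENSOMYG00000022816 with ENSOMYG00000044381. One pair was opposite in 6 clutches and alike in none. Pairs opposite in 6 clutches and alike in the other, as ENSOMYG00000001187 and ENSOMYG00000033183 were in F6, were not counted. ENSOMYG00000010984 was present in F1, F3 and F6 (2.60 to 3.19 CPM in gynogenetic and 2.19 to 3.10 CPM in control eggs), where ENSOMYG00000024055 was at 0, and it was at 0 in F2, F4 and F8, where ENSOMYG00000024055 was present. Whether the genes of a pair lie next to each other could not be read, because their positions were not available in the reference used here, and whether a gene has a near-identical copy elsewhere in the genome could not be checked. Reads marked as mapping to several places were not assigned to a gene. They were 5.58% to 5.90% of the sum of assigned, ambiguous, outside-gene and several-place reads of a library. This is not their share of all sequenced reads.

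**Figure D3:**
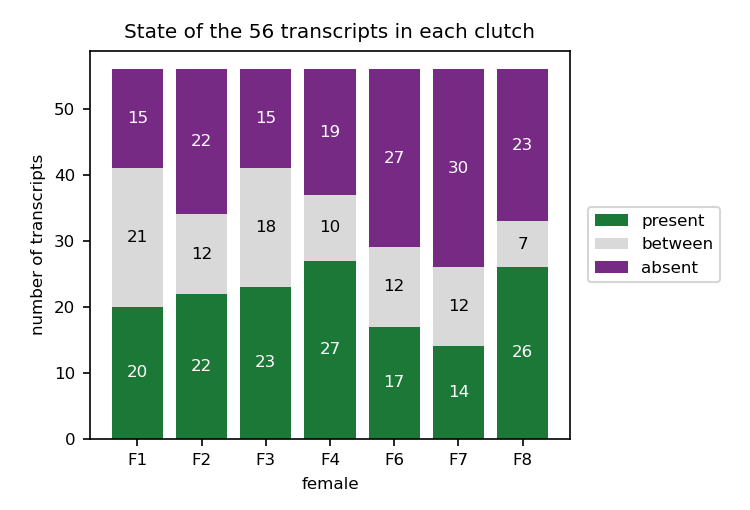
Number of the 56 genes called present, between and absent in each clutch (stacked bars, 1 bar per female). F4 carried the most (27 present) and F7 the fewest (14 present, 30 absent).

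Each clutch carried some and lacked others of the 56 transcripts. F4 had 27 present and 19 absent, F8 26 and 23, F3 23 and 15, F2 22 and 22, F1 20 and 15, F6 17 and 27, and F7 14 and 30. The 56 genes together had 77.0 CPM in gynogenetic and 110 CPM in control eggs of F7, and 405 and 358 CPM in those of F4. ENSOMYG00000040583 alone made up 168 and 118 CPM of the sums of F4, and it was at 0 in F7. F7 had the deepest gynogenetic library (67557305 counts) and the shallowest control library (34535902 counts). In the deeper one, 25 of the 56 genes had 0 counts, and in the shallower one 27. The part of depth in the states was not tested beyond thinning and a CPM limit on absence. With all libraries thinned to the smallest, the same rule took 70 genes, 53 of them among the 56. With absence set at the CPM of 3 counts in the smallest library, it took 67 genes, with all 56 among them.

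Clutches F6 and F8 were the most alike. Of the 40 genes called present or absent in both, 13 were present in both, 14 absent from both and 13 differed, so that 67.5% had the same state. F2 and F3 followed with 59.4%. The least alike were F4 and F7 with 35.1%, where 24 genes differed. These shares describe genes selected for differing between clutches and do not measure how alike the clutches were over the genome.

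For comparison, 11767 of the 16235 genes present in at least 2 clutches (72.5%) were present in all 7. A further 95 (0.585%) were absent from exactly 1 clutch. Genes close to the thresholds were at hand on both sides. The lowest second-best clutch among the 56 had 2.03 CPM (ENSOMYG00000005515), and the nearest genes left out, ENSOMYG00000020034 and ENSOMYG00000002388, had 2.00 CPM, just under the limit before rounding. On the side of absence, the second-lowest clutch had 0 counts in 38 of the 56 genes and 2 counts in the others, and 14 genes with 4 counts were left out.

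The agreement of the pools of a clutch was read on genes chosen in one group and looked up in the other, since the rule itself uses both libraries. By the same thresholds, 106 genes were chosen in the gynogenetic libraries alone and 121 in the control libraries alone. Each set held all 56, which follows from the rule. For the genes chosen in gynogenetic eggs, the control library was at 2 CPM or more in 227 of 274 present combinations (82.8%) and at 3 counts or fewer in 211 of 287 absent combinations (73.5%). For those chosen in control eggs, the gynogenetic library was at 2 CPM or more in 257 of 325 (79.1%) and at 3 counts or fewer in 236 of 338 (69.8%).

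Outright contradictions between the pools were few. A transcript chosen as absent in gynogenetic eggs was at 2 CPM or more in the control pool of the same clutch in 3 combinations, and in the opposite reading in 1. A transcript chosen as present was at 3 counts or fewer in the other pool in 2 combinations when chosen in gynogenetic eggs and in 7 when chosen in control eggs. All other changes were to values between the thresholds.

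Levels in the pools of a clutch were compared where a transcript was called present, which needs 2 CPM in both pools. The pools were within 2-fold of each other in 134 of 149 combinations (89.9%). For the other detected genes at 2 CPM or more in both pools it was 92.9% of 101913 combinations. The 13 combinations with a single pool at 2 CPM or more are left out, so the rule itself favours pools that are alike. The median absolute log2 ratio of gynogenetic over control CPM was 0.33 for the 56 genes and 0.32 for the others, and the signed median −0.05 and 0.01. The signed median of the 56 genes was −0.12 with TMM factors and −0.11 with DESeq2 size factors, and −0.0013 without F6, so its distance from 0 depended on the scaling and on that clutch. Beyond 2-fold, 5 combinations were higher and 10 lower in gynogenetic eggs. The largest gaps were in ENSOMYG00000044381 in F4 (log2 ratio 2.75), ENSOMYG00000023954 in F8 (−2.08) and ENSOMYG00000001187 in F7 (−2.003).

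The direction within a gene varied between genes. The gynogenetic library was higher in every carrying clutch for 12 genes and lower in every one for 17, and 27 genes had both directions. By clutch, the median log2 ratio of the present genes was 0.07 in F1, −0.06 in F2, 0.19 in F3, 0.03 in F4 and −0.08 in F8. It was −0.33 in F6, where 1 gene was higher and 16 lower in gynogenetic eggs, and −0.63 in F7, where 3 were higher and 11 lower. Over the other genes the medians were 0.11 in F6 and −0.02 in F7. In these 2 females the gynogenetic library was also the deeper one, with 64700077 counts against 45735498 in F6 and 67557305 against 34535902 in F7. It was deeper in F8 as well, with 57258999 against 47792105, where the median was −0.08. The part of depth in the ratios was not tested.

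**Figure D4:**
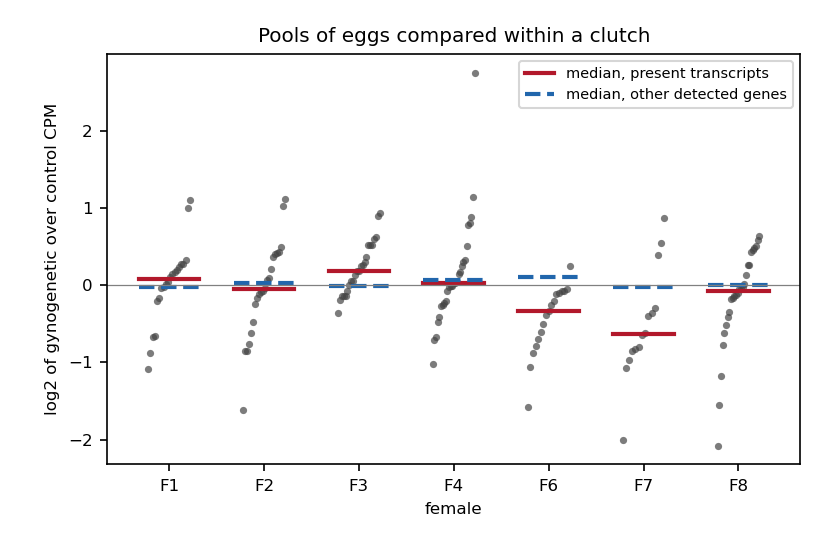
Log2 ratio of gynogenetic over control CPM for each of the 56 genes in each clutch that carries it (grey points), with the median of these genes (red line) and of the other detected genes at 2 CPM or more (blue dashed line). The red line lies between −0.08 and 0.19 in 5 females, at −0.33 in F6 and at −0.63 in F7.

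Gynogenetic and control eggs were compared over all 30919 detected genes. The rule did not look for a difference between the treatments, but it took genes whose pools agreed in a clutch, so the calls among the 56 are given as values and nothing is read from how few they are. Without the clutch in the model, edgeR's quasi-likelihood test with Benjamini-Hochberg adjustment called 57 genes (0.184%), and 0 of the 56. None of the 56 had an unadjusted p under 0.05, their lowest adjusted p was 1.0, and DESeq2 called none of them either. The fitted log2 difference, gynogenetic over control, was above 0 in 22 and below 0 in 34 of the 56, with a median of −0.10 against 0.03 over all genes. In this fit the gap between clutches counts as scatter within a group, and it is large for genes selected on that gap.

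With the clutch as a replicate block, 1557 genes (5.04%) passed edgeR's quasi-likelihood test, and 1 of the 56 did. This was ENSOMYG00000044381, which was higher in gynogenetic eggs by 2.24 on the log2 scale (adjusted p = 0.00134), against 1.68 and an adjusted p of 1.0 without the block. An unadjusted p under 0.05 was found in 8 of the 56, and the median log2 difference of the 56 was −0.15 against 0.01 over all genes.

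ENSOMYG00000044381 had 12.2, 2.16 and 13.7 CPM in gynogenetic eggs of F1, F3 and F4, against 6.08, 0.0713 and 2.03 CPM in their control eggs. In F2, F6 and F7 it was at 0 in both pools, and in F8 it was at 0 in gynogenetic and at 0.0418 CPM in control eggs. The pool of gynogenetic eggs was higher in all 3 clutches with the transcript, and the call rests on few of them. Leaving out F3 or F4 ended it (highest adjusted p = 0.111, edgeR with the block).

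None of the 56 transcripts was present throughout one class of females and absent throughout the other. ENSOMYG00000040771, which the rule also gave, is outside these counts. The study classes the clutches of F1, F4, F7 and F8 as those of increased competence for gynogenesis, and those of F2, F3 and F6 as decreased. Of the 56 transcripts, 0 were present in all 4 females of increased competence and absent from all 3 of decreased competence, and 0 had the reverse pattern. For 1 gene the 8 and 6 libraries did not overlap, against 0.33% of the 30919 detected genes. This was ENSOMYG00000032447, which had at most 0.109 CPM in gynogenetic and 0.285 CPM in control eggs of F1, F4, F7 and F8. It had 2.49, 6.44 and 2.19 CPM in gynogenetic eggs of F2, F3 and F6, and 2.69, 4.24 and 0.612 CPM in their control eggs. The presence of a transcript was used by the rule, so these counts are given with no test.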

How the data were processed

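Read quality was checked with FastQC 0.11.9 by the authors, who mapped trimmed reads to OmykA_1.1 using STAR 2.7.5c and counted them for each Ensembl gene using HTSeq 1.99.2 (versions per the submitters' processing notes). They also normalized with DESeq2 (given as 3.16). The deposited files hold raw counts of 64494 genes, and 5 summary lines per library were left out. The strand setting of the counting was not given. CPM was each count over the sum of all gene counts, times 1000000. Counting error limits the low values, and the differences between pools of eggs add to it.

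The labels give treatment and replicate number. The female of each replicate number and its competence class come from the study's supplementary tables and text. The 2 libraries of a number come from eggs of 1 clutch, and their deviations from the group means correlated with r from 0.373 to 0.529 over 30919 genes, against −0.225 to 0.0548 for other pairs of libraries.

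Genes were tested with edgeR 4.0.16 (quasi-likelihood F-test, TMM factors, Benjamini-Hochberg, threshold 0.05) and, beside it, with DESeq2 1.42.0, in R 4.3.3. The fit was tested on simulated data, where levels varied between clutches but no gene was set to be absent from some of them. The 56 genes and the lists were chosen with earlier results of these data known. Genes named are the 20 with the highest mean CPM in the clutches that carry them and those past a threshold in a test. Some of those nearest a limit of the rule are named too, and others serve as examples chosen after their values were seen. No symbol, product or position could be matched, so the planned descriptions of neighbours and gene classes were not made. Alternatives were other thresholds, scalings, filters and tools, halved or thinned counts and leaving out each clutch.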

Additional observations from a re-analysis of the deposited data

Results flagged for a closer look

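The levels of 27 named genes in each treatment were searched for a library far from the others. Summaries by clutch, such as assigned counts and numbers of genes present, were searched too, which made 62 groups of 7 values. A value was flagged where its gap to the nearest value divided by the range exceeded Dixon's critical value for 7 samples. Chance flags about 1 in 20 groups, and genes present in few clutches meet this condition easily. ENSOMYG00000040583 met it in F4 in both groups, at 0.650 in gynogenetic eggs (168 CPM, next 58.6 CPM) and at 0.571 in control eggs (118 CPM, next 50.7 CPM). ENSOMYG00000040438 met it in F6 in both groups, at 0.637 in gynogenetic eggs (34.6 CPM, next 12.6 CPM) and at 0.802 in control eggs (37.2 CPM, next 7.37 CPM). In control eggs, ENSOMYG00000033183 met it in F8 at 0.613 (42.2 CPM, next 16.3 CPM), ENSOMYG00000036723 in F4 at 0.664 (24.9 CPM, next 8.37 CPM) and ENSOMYG00000044381 in F1 at 0.666 (6.08 CPM, next 2.03 CPM). In gynogenetic eggs of F3, ENSOMYG00000032447 met it at 0.614 (6.44 CPM, next 2.49 CPM) and ENSOMYG00000004733 at 0.587 (5.17 CPM, next 2.13 CPM).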

How the results depend on the processing

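The number of genes taken by the rule was 56. It was 105 with absence at up to 10 counts, 105 with presence from 1 CPM, 19 with presence from 5 CPM, 10 with 3 clutches on each side, 106 in gynogenetic libraries alone and 121 in control libraries alone. It was 38 with absence at 0 counts, 60 with TMM factors and 58 with DESeq2 size factors, and 53 of the 56 were in each of the last 2 sets. Without each clutch in turn it was 32 (without F4) to 44, since fewer clutches were left to meet the rule. For gynogenetic against control eggs, 57 genes passed edgeR without the replicate block, 1557 with it, 245 with DESeq2 and 1828 with the block on halved counts. Leaving out each clutch gave 4 (without F2) to 51 without the block and 1415, 1748, 1236, 1212, 1340, 1508 and 1739 with it, without F1, F2, F3, F4, F6, F7 and F8 in that order. Of the 56, 1 passed with the block and 1 with the block on halved counts, and 0 to 4 with the block when a clutch was left out (4 without F8). The log2 difference of ENSOMYG00000044381 was 2.24 with the block, 2.21 with halved counts and 1.49 to 2.80 when a clutch was left out, with adjusted p from 2.68e-06 to 0.111. It was above 0 in every fit. Fitted differences of 9 of the 56 genes, none of them called, changed sign with the block (values up to 0.75 in size). The median over all genes, 0.01 with the block, was −0.0023 without F6 and −0.0063 without F7. Thinning, halving and the CPM limit on absence were chosen after seeing the data. Depth limits absence to about 3 fragments in a library, and with 2 to 3 eggs per library the spread between eggs of a clutch was not measured.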
